A study of Arabidopsis thaliana with 6 samples.

Results

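Group VIIIb of the ERF (ethylene response factor) family holds transcription factors of embryo, shoot and lateral organ patterning. The 6 genes described here were DORNROESCHEN (DRN, also ESR1, AT1G12980), DORNROESCHEN-LIKE (DRNL, also ESR2, AT1G24590), PUCHI (AT5G18560), LEAFY PETIOLE (LEP, AT5G13910), ERF087 (AT1G28160) and ERF088 (AT1G12890). They were chosen by gene code, 1 row each, and make up 6 of the 1880 rows of the deposited matrix. ERF proteins bind DNA through a single AP2 domain and switch their targets on or off. DRN and DRNL act redundantly in the embryo to form the cotyledons, and each promotes shoot regeneration in culture when overexpressed. PUCHI is an auxin-responsive gene that restrains cell divisions in the flanks of the lateral root primordium and takes part in floral meristem identity, and LEP turns the petiole leaf-like when overexpressed.

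Arabidopsis thaliana immature zygotic embryo explants were assayed by real-time RT-PCR, with SYBR Green as the dye and a primer pair for every gene. The genotypes were wild-type Col-0, which forms somatic embryos in this culture, and the tanmei mutant (allele tan1-2), which carries a lesion in the gene of the WD repeat protein TANMEI and does not form them. Each was sampled at 0 d, as freshly excised late cotyledonary embryos, and after 5 d and 10 d on solid E5 medium with 5 µM 2,4-D, a synthetic auxin. Each of the 6 groups is represented by 1 mean Ct per gene, which the authors averaged over 3 replicates. Single replicates were not analysed here, so no difference below carries an error or a test. Every group was a whole explant or culture, in which fewer cells of a type and less transcript per cell cannot be told apart.

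Ct is the PCR cycle at which the product crosses the detection threshold, and 1 cycle less stands for a 2-fold higher transcript level. A row without a Ct was set to 40 cycles, and a gene was called detected at a mean Ct below 40. All 6 genes lie in the first of 5 equal blocks of rows of the matrix, and a level is given as the median Ct of that block minus the Ct of the gene, on the log2 scale. The block median was 26.33, 25.26 and 24.43 cycles in Col-0 at 0 d, 5 d and 10 d, and 25.11, 25.18 and 25.34 cycles in tanmei. In Col-0 this median fell by about as much as some changes given below, so the uncentred Ct stands beside each level. Levels depend on the primer pair and were compared between groups and not between genes.

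The code of each gene was checked first, because many codes of the deposited matrix carry a different profile in the study's own table of expression levels. Of 728 codes present in both, 74 had profiles within a root mean square difference of 1 cycle over the 6 groups, and 62 of these were among the 169 such codes of the first block. Of the 6 genes, 5 were in the table and 4 of these were within 1 cycle. This difference was 0.105 cycles for ERF088, 0.155 for DRNL, 0.551 for PUCHI and 0.969 for ERF087. LEP differed by 1.19 cycles, with 2.64 cycles in Col-0 at 0 d as its largest single difference. ERF087 differed most in tanmei at 0 d, by 1.95 cycles, and in both of these groups the mean Ct was above 37. DRN was not in the table. Its row lies in a stretch of 14 neighbouring codes from row 93 to row 114, of which 13 were within 1 cycle. DRNL, ERF087, LEP and PUCHI lie in a second such stretch of 15 codes from row 141 to row 164, with 14 within 1 cycle. A stretch ends on each side before the first code that differed by 2 cycles or more. The members in the table are counted in it. A high share within 1 cycle is thus in part built in. Searched over all rows, the profile of ERF088, DRNL and PUCHI led back to their own row, whereas that of LEP and ERF087 met no row by the rule of a clear best match. The identity of DRN, LEP and ERF087 thus rests more on the position of their rows than that of the other members.

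**Figure D1:**
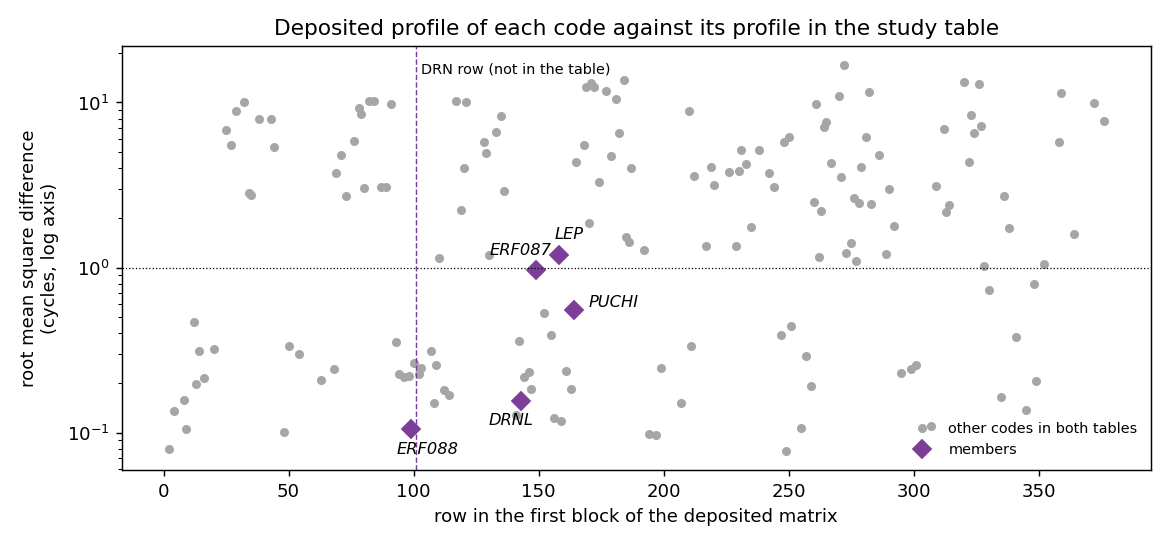
Root mean square difference in cycles (log axis) between the deposited profile of each code and its profile in the study's table, by row of the first block. Diamonds mark the 5 members in the table, the dashed line marks the row of DRN, and the dotted line marks 1 cycle. ERF088 and DRNL lie low in stretches of matching codes, and LEP lies just above the dotted line at 1.19.

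As a check of the tissue, the embryo regulators ABI3, FUS3 and LEC2, whose rows lie among matching codes, had a Ct in all 6 groups. ABI3 was at 18.1 and 19.3 cycles in Col-0 and tanmei at 0 d, and at 19.6 and 31.0 cycles at 10 d. From 0 d to 10 d ABI3, FUS3 and LEC2 changed by −3.38, −2.89 and −0.27 in Col-0, log2 relative to the block median. In tanmei they changed by −11.5, −9.73 and −6.50. L1L, found through its profile under another code, changed by −3.69 in Col-0 and −6.46 in tanmei. Against the block median all but LEC2 thus fell by more than 2-fold in Col-0 also. From 0 d to 10 d in Col-0 the Ct of FUS3 went from 20.09 to 21.08 cycles and that of LEC2 from 28.86 to 27.24 cycles. Without centring FUS3 thus fell by less than 2-fold there and LEC2 rose. The larger decline of these regulators in tanmei cultures moved with the results below that set tanmei apart, and its part in them was not tested. AGL62, an endosperm gene, was found through its profile under another code and was at 33.3 and 31.7 cycles in Col-0 and tanmei at 0 d. TT16, a seed coat gene found in the same way, had no Ct at 0 d.

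Of the 6 genes, 4 had a Ct in all 6 groups. PUCHI had none at 0 d in either genotype, and ERF087 had none in tanmei at 5 d and 10 d. The members fell into 3 kinds of profile. PUCHI, LEP and ERF088 were far higher in culture than in the explant in both genotypes. DRN varied least. DRNL and ERF087 changed in opposite directions in Col-0 and tanmei from 0 d to 10 d. For ERF087 the tanmei side is the loss of a Ct that was 37.99 cycles in the explant, near the limit of detection.

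**Figure D2:**
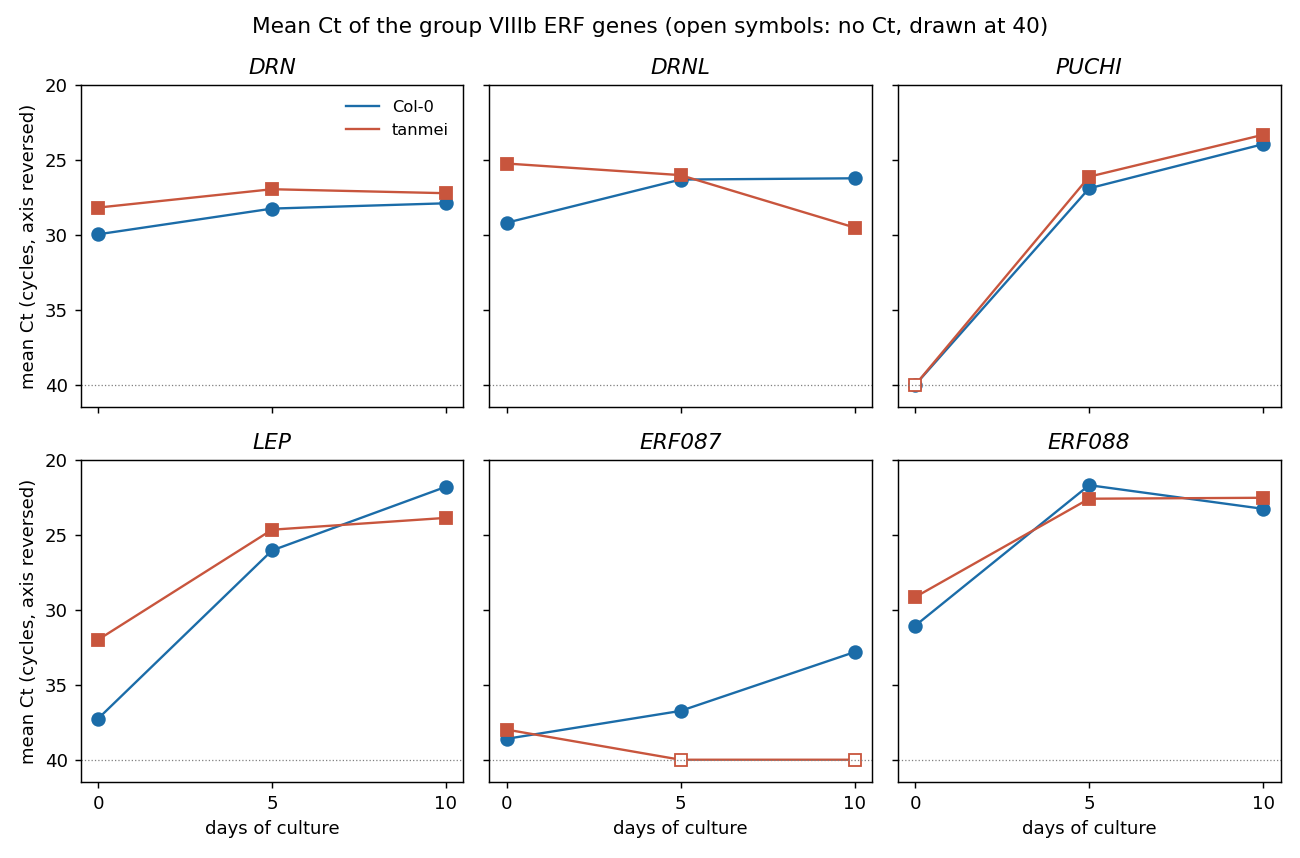
Mean Ct in cycles (reversed axis, so higher points mean more transcript) of each gene at 0, 5 and 10 d in Col-0 (circles) and tanmei (squares). Each point is the authors' mean with no error available, and open symbols at 40 mark no Ct. PUCHI, LEP and ERF088 climb after 0 d in both genotypes, and ERF087 separates into a rising Col-0 line and a tanmei line without product.

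DRN, which acts in the apical embryo and the cotyledon primordia, was detected in every group. In Col-0 its mean Ct was 29.96 at 0 d, 28.24 at 5 d and 27.89 at 10 d. In tanmei it was 28.18, 26.95 and 27.22 cycles. Relative to the block median the levels were −3.63, −2.98 and −3.46 in Col-0 and −3.06, −1.77 and −1.88 in tanmei, so the tanmei cultures held the highest levels and the Col-0 explant the lowest. Its log2 change to 5 d came to 0.65 in Col-0 and 1.29 in tanmei, and that to 10 d to 0.17 and 1.18. DRN thus passed 2-fold in tanmei and not in Col-0 when set against the block median. Without centring the Col-0 change was 1.72 cycles at 5 d and 2.07 cycles at 10 d. In tanmei it was 1.23 cycles at 5 d and 0.96 cycles at 10 d, so the 10 d call was lost. Against the reference gene UBQ the changes to 10 d were 1.84 in Col-0 and 2.04 in tanmei. Here and below the Ct of UBQ is inferred from the offset between the study's table and the deposited Ct. Whether DRN passed 2-fold thus depended on the reference in Col-0 at both times and in tanmei at 10 d. Between 5 d and 10 d it moved by less than 2-fold in both genotypes.

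DRNL, the close paralogue of DRN in cotyledon and lateral organ founder cells, followed a different course in each genotype. In Col-0 its mean Ct was 29.19 at 0 d, 26.31 at 5 d and 26.22 at 10 d. In tanmei it was 25.24, 26.01 and 29.50 cycles. The tanmei explant thus held the highest level of the 6 groups and the tanmei culture at 10 d the lowest. Relative to the block median the levels were −2.86, −1.05 and −1.79 in Col-0 and −0.13, −0.83 and −4.17 in tanmei.

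From 0 d to 5 d DRNL was 3.52-fold higher in Col-0, a log2 change of 1.82, while the tanmei value moved by −0.71. The tanmei value was under 2-fold and had the opposite sign, 0.43, when set against the inferred Ct of UBQ. From 5 d to 10 d DRNL changed by −0.75 in Col-0, which was 0.08 cycles without centring, and by −3.34 in tanmei, a 10.1-fold decline. Over the whole culture it was 2.09-fold higher in Col-0 and 16.5-fold lower in tanmei. The Col-0 and tanmei changes over 10 d were 5.11 apart on the log2 scale, and this difference was not tested.

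PUCHI, with its known role in lateral root and flower primordia, was the member that appeared only in culture. It was listed at 40 cycles in the explants of both genotypes. In Col-0 its mean Ct was 26.89 at 5 d and 23.95 at 10 d, and in tanmei 26.12 and 23.32 cycles. The levels at 5 d were −1.63 in Col-0 and −0.94 in tanmei, and at 10 d 0.48 and 2.01, so both genotypes went from no product to near or above the median of the block. With 40 cycles as the limit, the log2 change to 5 d came to at least 12.04 in Col-0 and at least 13.95 in tanmei. PUCHI had the highest of the 369 changes tested in the block in tanmei and the fourth highest of 367 in Col-0, with rows bounded in this way included. PUCHI went on rising between 5 d and 10 d, by 4.32-fold in Col-0 and 7.74-fold in tanmei. Its largest single difference from the study's table was 1.33 cycles, in Col-0 at 5 d. The Col-0 changes to and from 5 d, and its genotype difference at 5 d, carry that uncertainty.

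LEP, whose overexpression alters the leaf petiole, was near the limit of detection in the Col-0 explant. In Col-0 its mean Ct was 37.26 at 0 d, 26.05 at 5 d and 21.80 at 10 d. In tanmei it was 32.00, 24.67 and 23.88 cycles. The digits of the Col-0 mean at 0 d are those of a mean of 2 values, so 1 of the 3 replicates may have given none. This was also the group in which the study's table differed most from the deposited Ct, and the Col-0 changes from 0 d carry that uncertainty.

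The levels of LEP were −10.94, −0.79 and 2.63 in Col-0 and −6.89, 0.51 and 1.46 in tanmei. LEP was 1136-fold higher at 5 d than at 0 d in Col-0, a log2 change of 10.15, and 169-fold higher in tanmei, a log2 change of 7.40. It rose again by 10.7-fold from 5 d to 10 d in Col-0. The second step in tanmei was 1.93-fold, which was below the threshold. The order of the genotypes changed on the way, with LEP lower in Col-0 than in tanmei at 0 d and 5 d and higher at 10 d.

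ERF087 was detected late in the run wherever it had a Ct. In Col-0 its mean Ct was 38.61 at 0 d, 36.74 at 5 d and 32.82 at 10 d. In tanmei it was 37.99 at 0 d, with the digits of a mean of 2 values, and there was no Ct at 5 d and 10 d. Both genotypes thus began near the limit of detection. The Col-0 culture at 5 d was still close to it, and only the Col-0 culture at 10 d moved clearly away. The levels in Col-0 were −12.28, −11.48 and −8.39, and the level of the tanmei explant was −12.88.

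The change of ERF087 from 0 d to 5 d in Col-0 was 0.80 relative to the block median, 1.86 cycles without centring and 2.18 against UBQ. From 5 d to 10 d it rose by 8.50-fold, and over the whole culture by 14.8-fold. In tanmei the change from 0 d was at most −1.94 at 5 d and at most −1.78 at 10 d. These bounds rest on an explant Ct of about 38. The same group differed from the study's table by 1.95 cycles, and the tanmei changes of ERF087 carry that uncertainty. Against UBQ the bounds were at most −0.81 and at most −0.93, which do not reach 2-fold and leave the size of the loss unknown.

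ERF088, for which the files give no name other than its code, reached its highest level at 5 d in Col-0. In Col-0 its mean Ct was 31.07 at 0 d, 21.70 at 5 d and 23.27 at 10 d. In tanmei it was 29.16, 22.60 and 22.54 cycles. The levels were −4.74, 3.56 and 1.16 in Col-0 and −4.04, 2.58 and 2.80 in tanmei, so both explants lay well below and all 4 cultures above the block median. ERF088 was 316-fold higher at 5 d than at 0 d in Col-0 and 98.6-fold higher in tanmei. In Col-0 it then fell by 2.41 on the log2 scale, a 5.31-fold decline. Over the same interval it changed by 0.22 in tanmei, where it stayed within 2-fold of its 5 d value. At 10 d it was still 59.5-fold above the explant in Col-0 and 115-fold in tanmei.

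**Figure D3:**
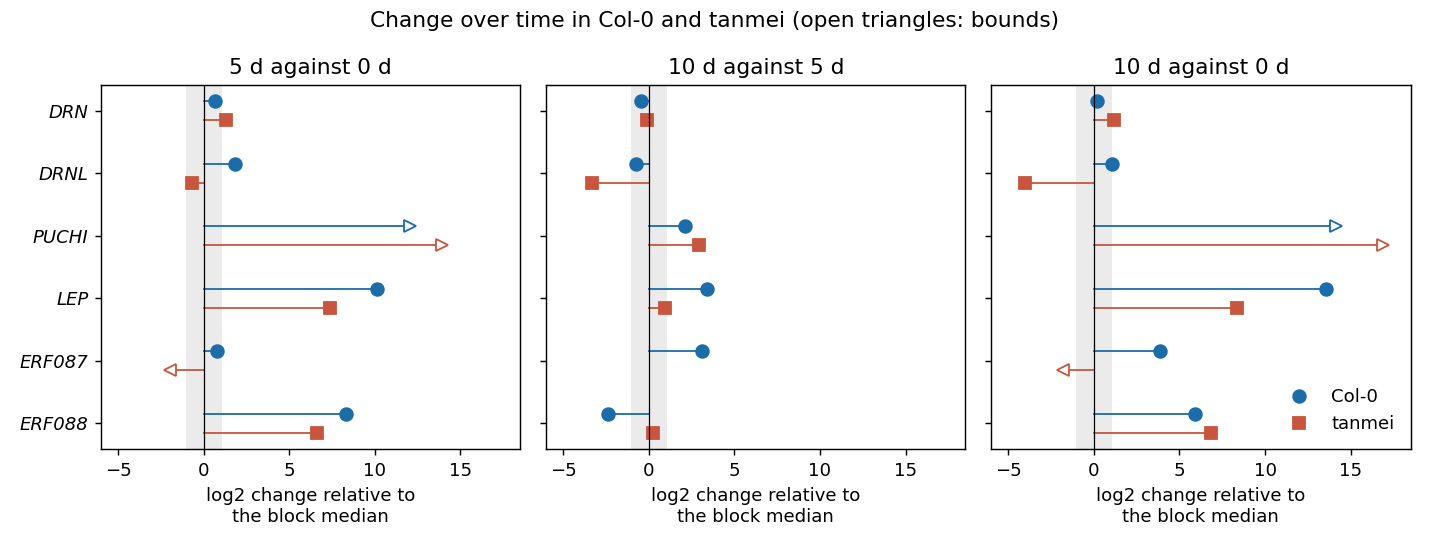
Log2 change of each gene relative to the block median from 0 d to 5 d, from 5 d to 10 d and from 0 d to 10 d in Col-0 (circles) and tanmei (squares), with the range under 2-fold shaded. Open triangles are bounds set by a missing Ct, and ERF087 has no tanmei value from 5 d to 10 d. PUCHI, LEP and ERF088 extend far to the right at 5 d in both genotypes, and DRNL lies on opposite sides of 0 over 10 d.

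Counted over the members, 4 of 6 rose 2-fold or more from 0 d to 5 d in Col-0, as did 28.9 percent of the 1822 rows tested, and none fell by as much, as did 38 percent. With no centring, with centring on all rows or against UBQ, 6 of 6 rose in Col-0, at 5 d and also at 10 d. The share of all rows was not computed in these settings. They leave in all or part of the fall of the block median in Col-0, from 26.33 to 25.26 and 24.43 cycles. The count of 6 thus has no background beside it and is not a result about the members alone. In tanmei 4 of 6 rose and 1 fell, against 28.7 and 39.4 percent of all rows. The members had a median change to 5 d of 5.06 in Col-0 and 3.96 in tanmei, and all rows one of −0.37 and −0.44. At 10-fold, 3 of 6 members were higher at 5 d in each genotype, where 11.1 percent of rows in Col-0 and 11.6 percent in tanmei were. These were PUCHI, LEP and ERF088 in both cases. Among rows labelled AP2/EREBP, the family to which the members belong, 40 of 142 passed 2-fold upwards at 5 d in Col-0 and 41 of 144 in tanmei.

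**Figure D4:**
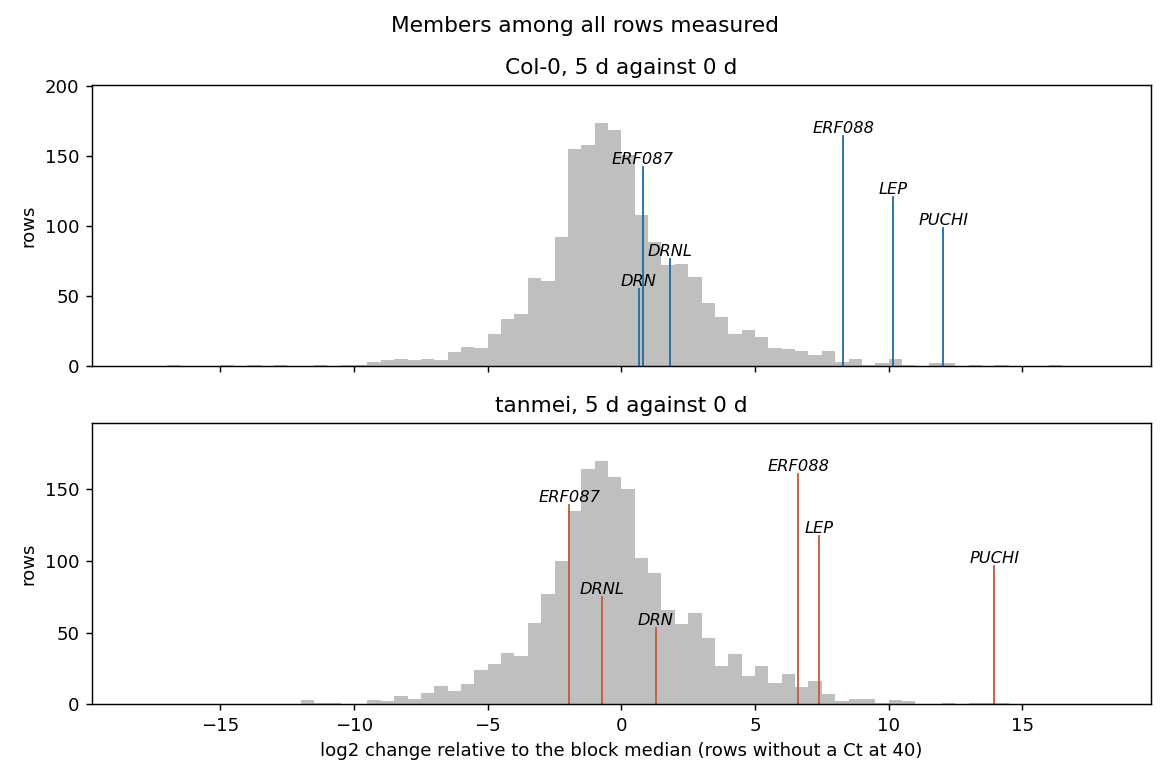
Histogram of the log2 change from 0 d to 5 d over all rows tested in Col-0 and in tanmei, with vertical lines at the value of each member (line height has no meaning). PUCHI, LEP and ERF088 lie in the right tail of both histograms, and DRN, DRNL and ERF087 lie within the body.

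From 5 d to 10 d in Col-0, PUCHI, LEP and ERF087 rose 2-fold or more (3 of 6, against 17.4 percent of all rows) and ERF088 fell (1 of 6, against 18.1 percent). In tanmei, of the 5 members that could be compared, PUCHI was higher (20 percent of all rows) and DRNL was lower (15.6 percent). From 0 d to 10 d, 5 of 6 members rose 2-fold or more in Col-0 and none fell, with 29 and 41.1 percent of all rows. The remaining member was DRN. In tanmei 4 were higher and 2 lower over the same time, with 31.1 and 37.4 percent of all rows.

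The members also differed between genotypes at a given time. In the explant, DRNL was 6.66-fold and LEP 16.6-fold lower in Col-0 than in tanmei, 2 of the 5 members compared, where 24.6 percent of all rows were lower by 2-fold. No member was at least 2-fold higher, against 22 percent. The LEP difference rests on the Col-0 mean of 37.26 cycles. DRN and ERF088 were lower in Col-0 by less than 2-fold against the block median, and without centring their Col-0 minus tanmei difference was −1.78 and −1.91 cycles. The same difference for ERF087 was 0.60 relative to the block median and −0.61 cycles without centring, so its order in the explants was not settled.

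At 5 d only ERF087 was higher in Col-0, by at least 3.34 on the log2 scale (1 of 6, against 22.1 percent of all rows). DRN was 2.31-fold and LEP 2.47-fold lower in Col-0 (2 of 6, against 24.1 percent). DRNL and PUCHI each differed by less than 2-fold between the genotypes, and ERF088 was 1.98-fold higher in Col-0. At this time 3 of 6 members were thus within 2-fold between an embryogenic and a non-embryogenic culture, and these counts do not stand out from the shares of all rows.

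At 10 d all 6 members were at least 2-fold apart, 3 in each direction. ERF087 was higher in Col-0 by at least 6.27 on the log2 scale, DRNL by 5.18-fold and LEP by 2.24-fold, where 22.4 percent of all rows were higher. DRN was 2.99-fold, PUCHI 2.90-fold and ERF088 3.13-fold lower, where 28.7 percent of all rows were. For these 3 genes the difference was −0.67, −0.63 and −0.74 cycles without centring and −0.90, −0.85 and −0.96 against UBQ, below 2-fold in each case. The higher values of DRNL, LEP and ERF087 passed 2-fold with every reference.

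**Figure D5:**
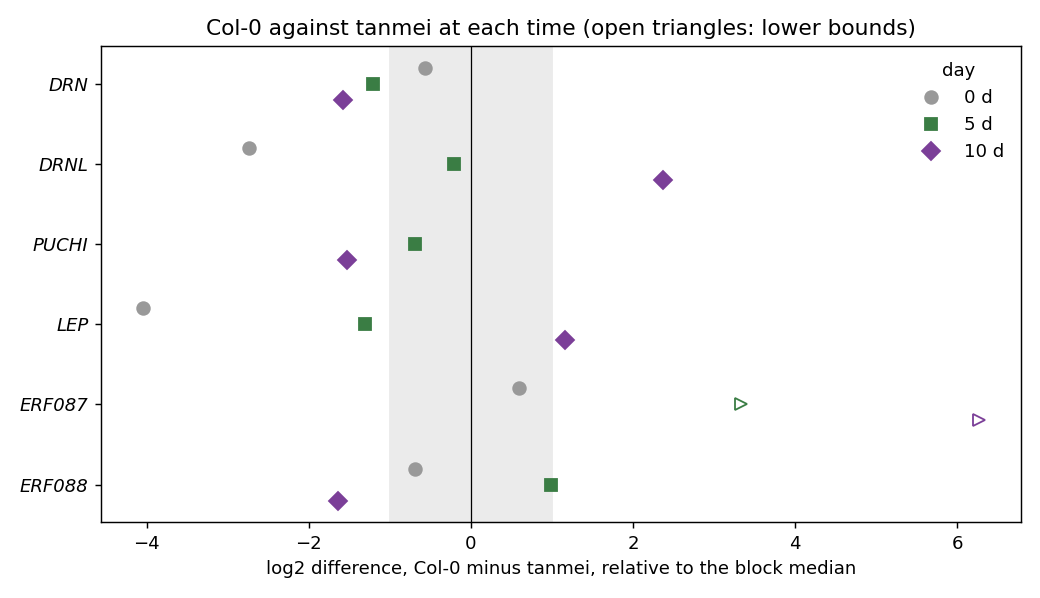
Log2 difference between Col-0 and tanmei relative to the block median for each gene at 0 d (circles), 5 d (squares) and 10 d (diamonds), with the range under 2-fold shaded. Open triangles are lower bounds set by a missing Ct in tanmei, and PUCHI has no value at 0 d. DRNL and LEP move from the left at 0 d to the right at 10 d, and ERF087 lies far to the right at 5 d and 10 d.

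ERF084 (AT1G80580), the group VIIIb relative outside the set, was read from its own code, which matched the table. Its mean Ct was 28.89, 25.69 and 26.57 in Col-0 and 31.07, 28.85 and 27.60 in tanmei. It was 2.13 higher at 5 d in Col-0 and 2.28 higher in tanmei on the log2 scale. Unlike DRNL and LEP it was higher in Col-0 than in tanmei in the explant, by 3.39. At 10 d the genotypes were 0.12 apart relative to the block median. Without centring, the means of 26.57 and 27.60 cycles put Col-0 just past 2-fold higher.

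Genes that work with these factors could be followed only in part, since most of their codes were not matched. Of 9 auxin and lateral root regulators, 4 were found through their profiles, namely ARF5, IAA14, LBD16 and LBD18. ARF5, the auxin response factor that acts upstream of DRN in the embryo, was 2.12 higher at 5 d in Col-0 and 2.51 higher in tanmei. LBD16 and LBD18, which act in lateral root initiation as PUCHI does, were 5.21 and 5.67 higher at 5 d in Col-0 and 4.48 and 7.28 higher in tanmei. All 4 stood 2-fold or more above the explant at both culture times in both genotypes. Of all rows, 28.9 and 29 percent did so in Col-0 at 5 d and 10 d, and 28.7 and 31.1 percent in tanmei. Since these 4 genes came from a list of genes changed in Col-0 culture, their count is no separate result.

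Of 16 embryo and shoot meristem patterning genes, 5 were found, namely CUC1, CUC2, PHB, PHV and LAS. PHB and PHV encode homeodomain leucine zipper proteins that bind DRN and DRNL. They were 2.61 and 2.59 higher at 5 d in Col-0 and 3.22 and 2.78 higher in tanmei. CUC1, which sets the cotyledon boundary and is activated by DRNL, was 0.98 higher at 5 d in Col-0 and changed by −5.46 in tanmei. Its Ct went from 27.68 to 24.48 cycles in Col-0 and from 25.16 to 29.57 cycles in tanmei. Of the 5 genes, 3 rose 2-fold or more against the block median from 0 d to 5 d in Col-0 and none fell. In tanmei 4 rose and 1, CUC1, fell. The Ct of CUC2 went from 28.91 to 26.85 cycles in Col-0, so without centring CUC1 and CUC2 also passed 2-fold there. Of all rows, 28.9 percent rose and 38 percent fell in Col-0, and 28.7 and 39.4 percent in tanmei. The 5 genes were found through the same list of genes changed in Col-0 culture, so these counts carry the same limit. Between the genotypes CUC1 was 4.99 higher in Col-0 at 5 d and 3.48 higher at 10 d. At 10 d LAS differed by −1.14, and CUC2, PHB and PHV by 0.10, 0.04 and −0.47.

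The rows with the most similar course were sought among the rows with a Ct in all groups, by the root mean square difference of the centred levels over the 6 groups. DRN had near matches, at 0.15 and 0.19, and so shared its shallow course with other rows. ERF088 was closest to AT1G63040, another AP2/EREBP row of the first block, at 0.66, and to the row deposited as AT2G02540 at 0.69. DRNL was closest to the row deposited as AT5G63160 at 0.60 and to AT5G06250 at 0.63. ERF087 was closest to the row deposited as AT1G75710 at 0.68. The last distance rests on 40 cycles set for ERF087 in the tanmei cultures. LEP had no row nearer than 1.37. No neighbour is given for PUCHI, since rows that like PUCHI lacked a Ct at 0 d were not searched. Codes of rows outside the stretches that matched the study's table may not name the gene measured.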

How the data were processed

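The authors isolated RNA from explants and cultures and measured transcripts by quantitative RT-PCR. The deposited matrix holds 1 mean Ct per gene and group, an average of 3 replicates made by the authors, with no SD. A second deposited table holds the authors' fold changes between groups and was not used. Depth does not apply to PCR values, and how precise each mean is cannot be given.

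The members and gene lists were chosen with earlier results of these data known. Rows were found by upper-case AGI code. A missing Ct was set to 40, and each gene was centred in each group on the median of its block, the rows being divided in order into 5 equal blocks. A comparison was made where at least 1 of its groups had a Ct, at thresholds of 2-fold and 10-fold. Where 1 group had none, the change is a bound. With 1 mean per group no test was run. Genes named beside the members are the 2 rows closest in course to each member and genes of the lists.

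Profiles of the study's table of 729 genes were set against the deposited rows after taking out 1 offset per block and group, which stands for the Ct of the reference gene UBQ. All values given against UBQ use this fitted offset and not a Ct read for UBQ itself. A gene was linked to a row with a root mean square difference below 1 cycle and a gap of at least 0.2 to the next best row. This linked 551 genes, 52 of them to their own code. Scripts were tested on simulated data. Symbols follow the RefSeq annotation TAIR10.1 where it has one. No sequence was printed. Python 3.11.15 and numpy 2.4.6 were used.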

Additional observations from a re-analysis of the deposited data

Results flagged for a closer look

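These results are listed because Col-0 and tanmei moved in opposite directions with at least 1 of them past 2-fold, and none of the differences was tested. DRNL changed from 0 d to 5 d by 1.82 in Col-0 and −0.71 in tanmei, and from 0 d to 10 d by 1.07 and −4.04, on the log2 scale relative to the block median. The tanmei sign at 5 d turns with UBQ as reference. ERF087 changed from 0 d to 5 d by 0.80 in Col-0 and by at most −1.94 in tanmei, and from 0 d to 10 d by 3.88 and at most −1.78. Its tanmei bounds rest on an explant Ct near the limit of detection. With UBQ as reference they were at most −0.81 and at most −0.93. ERF088 changed from 5 d to 10 d by −2.41 in Col-0 and 0.22 in tanmei, where the tanmei value was −0.06 with UBQ as reference.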

How the results depend on the processing

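Each of the 18 counts of members was recomputed under 8 alternatives. The share of all rows was not recomputed with them, apart from the 10-fold rises from 0 d to 5 d. A shift common to all rows is thus not set apart from one of the members. Using UBQ as reference and using only means below 35 cycles were chosen after seeing the data. No alternative turned the direction of a change past 2-fold. With the 3 members linked by profile (DRNL, PUCHI, ERF088) the Col-0 counts of higher members were 1 from 5 d to 10 d and 3 from 0 d to 10 d, and the tanmei counts at 5 d and at 10 d against 0 d were 2 and 2 higher and 0 and 1 lower. Between genotypes they were 1 lower at 0 d, 0 higher and 0 lower at 5 d and 1 higher at 10 d, and 2 were detected in all 6 groups. At 10-fold, members from 5 d to 10 d were 1 higher and 0 lower in Col-0 and 0 higher in tanmei. Lower members from 0 d in tanmei were then 0 at 5 d and 1 at 10 d. Between genotypes 1 was lower at 0 d, 0 lower at 5 d, and 1 higher and 0 lower at 10 d. With values without a Ct left out, tanmei had 0 lower members at 5 d and 1 at 10 d against 0 d, and 0 were higher in Col-0 at 5 d. Against UBQ these tanmei counts were 0 and 1, and Col-0 had 2 higher at 5 d and 0 lower at 10 d than tanmei. In Col-0 the higher members from 0 d went from 4 to 6 at 5 d and from 5 to 6 at 10 d with no centring, with centring on all rows and against UBQ. With no centring, 4 members were lower in Col-0 at 0 d and 0 at 10 d. Centring on the block rows detected in all groups gave 2 higher members from 5 d to 10 d in tanmei. With only means below 35, 2 members were higher in Col-0 at 5 d and 2 at 10 d against 0 d, tanmei had 0 lower at 5 d and 1 at 10 d, and between genotypes 1 was lower at 0 d and 0 higher at 5 d. The cause of these shifts was not tested beyond the fewer members or values that each setting keeps. No paired analysis was possible because each group is 1 mean over replicates, and for the same reason no replicate could be left out. Low values limit LEP in the Col-0 explant and all values of ERF087. The planned search for promoter motifs was not run.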
